A study of Mus musculus with 16 samples.

Results

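The genes that make fatty acids and assemble triglyceride were followed through 16 RNA samples of mouse primary hepatocytes, the liver's main cell type, in culture. They are 32 genes named by function and matched by mouse Ensembl gene ID, out of 55416 gene IDs measured: 4 regulators, 7 genes of fatty acid synthesis, 3 genes of NADPH supply, 4 long-chain acyl-CoA synthetases and 14 genes of glycerolipid assembly. Of these, 31 passed the filter on low values (at least 1 TPM in at least 4 samples), as did 11858 genes in all. The gene left out was Mogat1, a monoacylglycerol acyltransferase, whose level lay between 0 and 0.44 TPM in every sample. TPM (the share of all transcripts, scaled to a fixed total) is a level corrected for transcript length, so levels of different genes may be set side by side.

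Liver cells make fatty acids from cytosolic acetyl-CoA, which comes from citrate or acetate. Acetyl-CoA carboxylase turns it into malonyl-CoA and fatty acid synthase builds palmitate from that, using NADPH. Fatty acids made in the cell or taken up are activated by acyl-CoA synthetases and are then added to glycerol 3-phosphate by GPAT and AGPAT enzymes, dephosphorylated by lipins to diacylglycerol and capped by DGAT enzymes to give triglyceride. SREBP-1 and ChREBP are the transcription factors best known for switching on these genes in liver.

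The study asked about Smpd3, the gene of neutral sphingomyelinase 2, in a culture model of steatohepatitis made with palmitic acid, a saturated fatty acid. FLOX samples were labelled Alb-cre-, and HKO samples Alb-cre+, from a loxP cross in which Cre, driven by the albumin promoter, deletes Smpd3 in hepatocytes. Treatment was with vehicle or with palmitic acid at 0.4 mM, for 24 h in either case, and each of the 4 groups had 4 samples. The sources used here do not give the age or sex of the mice, the loxP allele of each group, the vehicle, or whether each sample of a group was its own mouse or culture. The p-values thus reflect how far these samples scatter, and that scatter may be only technical. Sequencing depth cannot be read from TPM.

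Smpd3 checked the labels: under vehicle, FLOX cells held on average 32 ± 4.1 TPM of it and HKO cells 5.29 ± 0.71 TPM, and 46 ± 2.4 and 7.82 ± 1.1 TPM with palmitic acid (mean ± SD, n = 4, as for all means here). All 10 hepatocyte markers were expressed, with a summed level of 57166 to 57849 TPM in FLOX vehicle, 60876 to 62112 in HKO vehicle, 44669 to 46163 in FLOX palmitic acid and 46957 to 48431 in HKO palmitic acid. With palmitic acid, 9 of the 10 fell in each genotype (limma adjusted p under 0.05), beside 11.5% of all genes in FLOX and 13.1% in HKO. Tat was among the 9 only in FLOX and Hnf4a only in HKO. Between genotypes, 5 were higher and 1 lower in HKO under vehicle, beside 4.11% and 7.56% of all genes. With palmitic acid 6 were higher and 1 lower, beside 4.24% and 5.5%. The 5 cholangiocyte markers summed to 180 to 242 TPM in FLOX and 298 to 386 TPM in HKO samples, but singly they went both ways: under vehicle Krt19 and Spp1 were higher and Krt7 lower in HKO, and Spp1 was higher with palmitic acid. With palmitic acid Sox9 and Spp1 rose and Krt19 fell in each genotype, and Krt7 had a mean of 2.31 and 1.17 TPM under vehicle and 0.277 and 0.095 TPM with it. The 7 macrophage markers summed to 48.9 to 55.6 TPM in FLOX vehicle and 60.8 to 70.3 TPM in HKO vehicle samples. With palmitic acid they summed to 56.1 to 68.6 TPM in FLOX and 81.3 to 107 TPM in HKO. Only 2 of those 7 reached 1 TPM in any sample, and 1, Cd68, entered the test. Cd68 was higher in HKO under vehicle and with palmitic acid, and rose with palmitic acid in each genotype (limma adjusted p under 0.05). Endothelial markers stayed at or under 5.46 TPM in sum, stellate and fibroblast markers at or under 2.02, leukocyte markers at or under 0.46 and adipocyte markers at or under 0.4, with Lep at 0 in all 16 samples. In bulk RNA, fewer cells of a type and less RNA per cell cannot be told apart, and the part of these shifts in the results below was not tested. Single samples lay at the edges of their groups for these genes: FLOX vehicle sample 1 was the highest of its group for 20 of the 31 genes and FLOX palmitic acid sample 1 the lowest for 19, HKO vehicle sample 2 was the highest for 21, and HKO palmitic acid sample 4 the lowest for 17. The tests were therefore repeated without the FLOX pair and without the HKO pair, choices made after seeing the data. For the 31 genes, a value without a pair is given where that ended or made a call. It is also given where that turned the sign of a palmitic acid difference in the genotype left with fewer samples. For the further lists below, not every such value is given.

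The stretches before the transcription start are shown for 5 of the genes called with palmitic acid: Acss2, Fasn and Lpin1 fell, and Lpin2 and Lpin3 rose. Any part of these stretches in those changes was not tested. Each is the 250 bases upstream of the start from RefSeq, build GRCm38.p6, written 5′ to 3′ on the gene's strand. Capitals mark CACGTG (E-box), CCAAT, and TCACNCCAC (a sterol regulatory element), matched on either strand, so that ATTGG is CCAAT on the other strand and overlapping matches run together. Acss2 lies at chr2:155517793-155518042 (plus strand), Fasn at chr11:120824548-120824797 (minus strand), Lpin1 at chr12:16610967-16611216 (minus strand), Lpin2 at chr17:71183282-71183531 (plus strand) and Lpin3 at chr2:160880420-160880669 (plus strand); for Lpin2 and Lpin3, which have several starts, the window numbered 1 is shown.
Acss2: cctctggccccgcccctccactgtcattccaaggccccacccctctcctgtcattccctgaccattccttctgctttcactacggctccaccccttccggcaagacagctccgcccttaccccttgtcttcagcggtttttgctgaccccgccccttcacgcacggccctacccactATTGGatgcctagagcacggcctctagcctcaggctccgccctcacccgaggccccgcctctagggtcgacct
Fasn: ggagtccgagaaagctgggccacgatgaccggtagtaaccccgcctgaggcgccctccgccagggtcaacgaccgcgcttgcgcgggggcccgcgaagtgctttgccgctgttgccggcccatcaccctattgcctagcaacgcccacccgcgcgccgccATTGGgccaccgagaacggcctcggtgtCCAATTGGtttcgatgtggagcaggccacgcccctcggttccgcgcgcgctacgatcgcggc
Lpin1: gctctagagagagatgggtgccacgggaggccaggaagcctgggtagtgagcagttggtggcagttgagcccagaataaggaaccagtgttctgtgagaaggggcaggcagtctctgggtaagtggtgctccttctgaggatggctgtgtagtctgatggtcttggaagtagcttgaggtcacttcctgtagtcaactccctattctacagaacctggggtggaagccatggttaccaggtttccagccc
Lpin2: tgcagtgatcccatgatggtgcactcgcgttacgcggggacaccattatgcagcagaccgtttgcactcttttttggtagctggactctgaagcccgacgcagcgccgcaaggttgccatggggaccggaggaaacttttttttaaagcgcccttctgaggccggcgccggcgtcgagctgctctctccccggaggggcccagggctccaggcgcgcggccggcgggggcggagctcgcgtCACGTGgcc
Lpin3: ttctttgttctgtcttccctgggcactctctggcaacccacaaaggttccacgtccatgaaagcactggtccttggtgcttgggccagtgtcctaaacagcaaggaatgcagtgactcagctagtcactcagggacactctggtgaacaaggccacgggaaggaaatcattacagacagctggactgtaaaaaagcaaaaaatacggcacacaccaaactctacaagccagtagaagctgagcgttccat
Acss2 holds 1 CCAAT match, Fasn holds 3 and Lpin2 holds an E-box at -9 to -4 from the start, while the stretches of Lpin1 and Lpin3 hold none of these letters. The Lpin3 window has its E-box at 23 to 28 after the start, past the part printed. The Lpin2 window numbered 3, not printed, holds CCAAT matches at -233 to -229, -165 to -161 and -57 to -53 from its start. RefSeq windows of 300 bases, which run 50 bases past the start, were found for 28 of the 32 genes, and Gpat4, Agpat5, Dgat1 and Dgat2 had none in the table. These genes have 40 windows, since some have several starts. The sterol element was held by 2 of the 40 (of Acsl1 and Mlxipl) and by 1.24% of all 32851 windows, the E-box by 4 of 40 (Lpin2, Lpin3, Mlxipl and Slc25a1) and by 7.15%, CCAAT by 20 of 40 and by 37.4%, and the GC box GGGCGG by 22 of 40 and by 35.7%. Windows of a gene can overlap. A match is a description of letters and does not show binding. Only these exact letters were sought, so the lack of a match does not show that a site is absent.

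Palmitic acid was followed by lower RNA of fatty acid synthesis genes and by divided movement among the genes of triglyceride assembly. In FLOX cells 18 of the 31 genes passed the test, 5 higher and 13 lower, against a background of 34.4% of all genes called, 23% higher and 11.5% lower (limma on log2(TPM + 1), Benjamini-Hochberg adjusted p under 0.05, over all 11858 genes). In HKO cells 20 passed, 6 higher and 14 lower, against 42.5% of all genes, 29.4% higher and 13.1% lower. One of the lower genes in each, Pnpla3, reached 1 TPM in 7 vehicle samples and in 0 treated ones, so that it entered the test through its vehicle samples alone and could only be lower; without it 17 passed in FLOX, 12 of them lower, and 19 in HKO, 13 of them lower. The median log2 difference of the 31 genes was -0.07 in FLOX and -0.13 in HKO, beside 0.10 and 0.11 over all genes. By role, 6 of the 7 fatty acid synthesis genes fell in each genotype, with medians of -0.34 and -0.67, whereas glycerolipid assembly had 5 higher and 4 lower of 13 in FLOX and 6 higher and 4 lower in HKO (3 lower of 12 in each without Pnpla3), with medians of 0.15 and 0.18. The medians were -0.11 and -0.17 for the regulators, 0.02 and 0.05 for NADPH supply, and 0.03 and -0.09 for the acyl-CoA synthetases. Treated and vehicle groups did not overlap for 15 of the 18 genes called in FLOX and for all 20 called in HKO, Pnpla3 included. Over all genes, 75.8% of the FLOX calls and 87.2% of the HKO calls had groups that did not overlap, which is 26.1% and 37.1% of all genes tested.

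These counts moved with the samples and the scaling. Without the FLOX pair numbered 1, 7 genes rose and 8 fell in FLOX, where the shares of all genes were 33.3% higher and 11.4% lower. Without HKO vehicle sample 2 and palmitic acid sample 4, 6 rose and 13 fell in HKO, against 27.5% and 10.7% of all genes. Scaling by median ratios, which took the all-gene median from 0.11 to 0.01 in HKO, gave 4 higher and 16 lower in FLOX, against 13.9% and 16.8% of all genes, and 4 higher and 19 lower in HKO, against 17.7% and 20% of all genes.

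**Figure D1:**
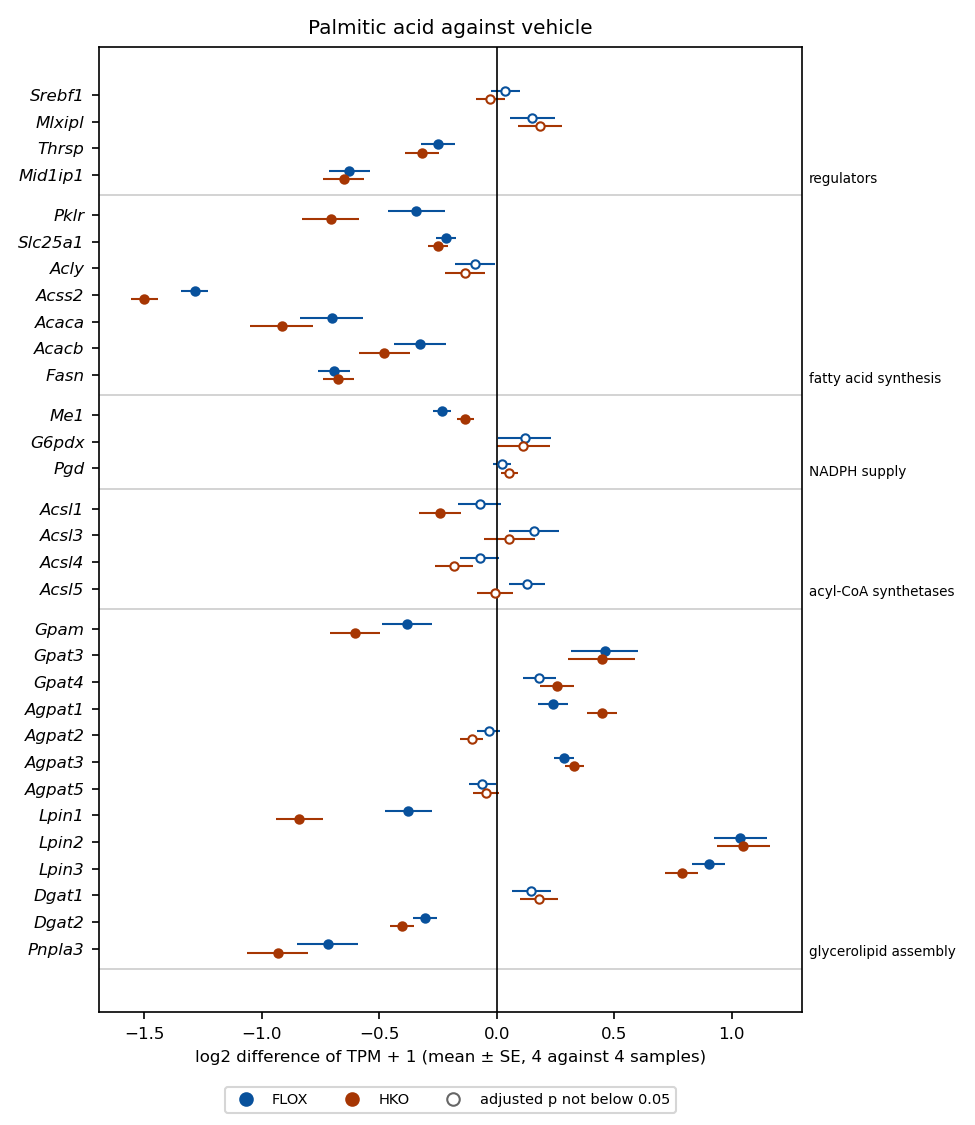
The log2 difference of TPM + 1 between palmitic acid and vehicle (x axis, mean ± SE, 4 against 4 samples) is plotted for 31 genes grouped by role, with FLOX in blue and HKO in orange-brown; open points did not pass adjusted p 0.05. Acss2 lies farthest left at -1.29 and -1.50, and Lpin2 farthest right at 1.04 and 1.05. Pnpla3, drawn as a filled point, entered the test through its vehicle samples alone.

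Among the regulators, the 2 transcription factors did not pass the test and the 2 small lipogenic proteins, Thrsp and Mid1ip1, fell. The level of Srebf1, which encodes SREBP-1, was 21.9 ± 1.9 TPM under vehicle and 22.4 ± 1.3 TPM with palmitic acid in FLOX, and 26.2 ± 0.86 and 25.7 ± 1.5 TPM in HKO. Its log2 difference was 0.04 ± 0.062 in FLOX (95% interval -0.10 to 0.17) and -0.03 ± 0.062 in HKO (-0.16 to 0.11), but scaling by median ratios gave -0.15 in HKO with a limma adjusted p of 0.0183, and quantile normalization -0.14 with 0.0224. Gene-level TPM does not separate the transcripts of Srebf1 that code for SREBP-1a and SREBP-1c. Mlxipl, which encodes ChREBP, differed by 0.15 ± 0.094 in FLOX and 0.18 ± 0.094 in HKO, with intervals of -0.05 to 0.35 and -0.02 to 0.39, and its transcripts were likewise not told apart.

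Mid1ip1 (MIG12), which helps acetyl-CoA carboxylase to polymerize, had 65.6, 51.97, 50.5 and 58.9 TPM in the FLOX vehicle samples and 33.6, 40.1, 37.5 and 33.9 TPM in the FLOX palmitic acid samples. In HKO the levels were 56.8, 63.5, 59.4 and 59.4 TPM under vehicle and 40.1, 38.7, 39.9 and 32.4 TPM with palmitic acid. Every treated sample was below every vehicle sample in both genotypes, and the log2 differences were -0.63 ± 0.086 and -0.65 ± 0.086 (limma adjusted p = 3.99e-05 and 1.82e-05). Thrsp, or Spot 14, its relative that promotes lipogenesis, fell by less, to 0.832 of the vehicle mean in FLOX and 0.789 in HKO (limma adjusted p = 0.0135 and 0.00223). In FLOX its groups overlapped, because the palmitic acid sample numbered 4 had 17.6 TPM where the vehicle samples began at 16.8 TPM. Its FLOX call was lost without the pair numbered 1 (adjusted p = 0.0532).

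**Figure D2:**
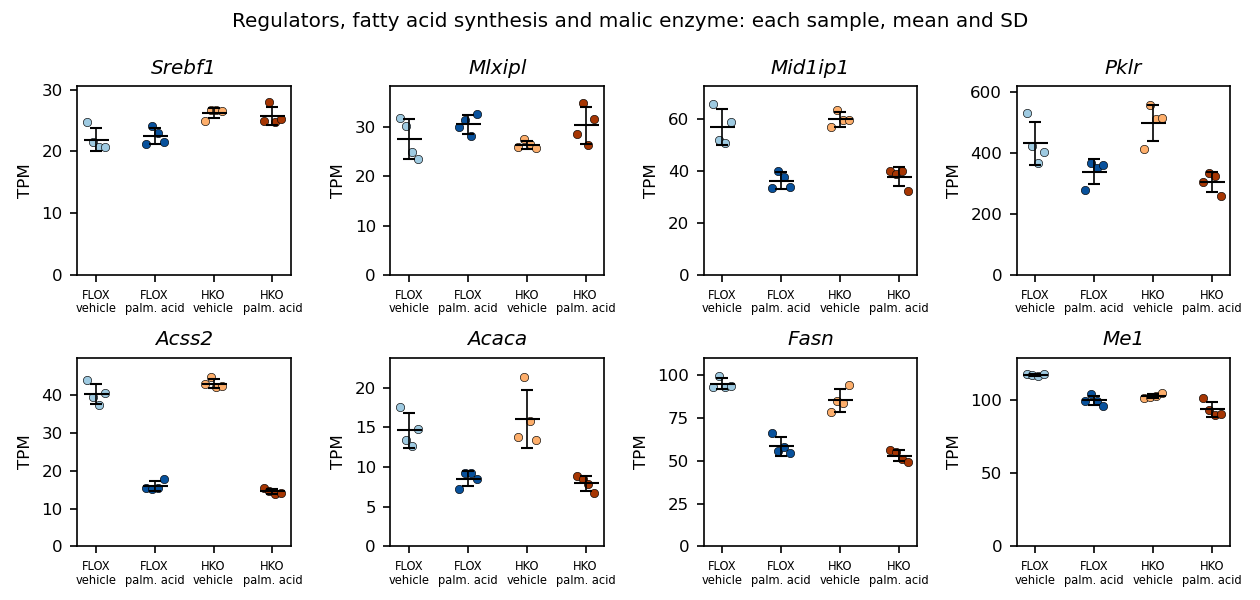
TPM of 8 genes (y axes from 0, in TPM) in each of the 16 samples; points are samples, the long bar is the mean and the whiskers are the SD of 4 samples in FLOX and HKO under vehicle and palmitic acid. The Acss2 panel shows the widest separation of treatments, with all vehicle samples at 37.4 TPM or above and all treated samples at 17.8 TPM or below.

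In the fit of all 16 samples, fatty acid synthesis genes fell from the acetyl-CoA supply through to the synthase, with Acly as the exception. Without the FLOX pair numbered 1, Pklr and Acacb did not pass in FLOX either (limma adjusted p = 0.276 and 0.0756). Acss2, cytosolic acetyl-CoA synthetase, which makes acetyl-CoA from acetate, moved the most. Its levels were 43.8, 39.6, 37.4 and 40.6 TPM in FLOX vehicle and 15.5, 15.2, 15.4 and 17.8 TPM in FLOX palmitic acid samples. In HKO they were 42.98, 44.6, 41.96 and 42.3 TPM under vehicle and 15.4, 14.6, 13.97 and 14.2 TPM with palmitic acid. The treated groups lay far below the vehicle groups with no overlap, at 0.396 and 0.339 of the vehicle mean, for log2 differences of -1.29 ± 0.057 and -1.50 ± 0.057 (limma adjusted p = 2.13e-10 and 3.36e-11).

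Fasn, fatty acid synthase, had 93.2, 99.7, 93.5 and 93.9 TPM in FLOX vehicle and 66.5, 55.7, 57.8 and 54.4 TPM in FLOX palmitic acid samples. In HKO it had 78.3, 84.97, 83.9 and 94.5 TPM under vehicle and 56.6, 55.4, 51.04 and 49.5 TPM with palmitic acid. No treated sample reached the lowest vehicle sample of its genotype, and the log2 differences were -0.69 ± 0.067 and -0.67 ± 0.067 (limma adjusted p = 1.07e-06 and 1.00e-06). Acaca, acetyl-CoA carboxylase 1, which makes malonyl-CoA for synthesis, went from 17.6, 13.4, 12.6 and 14.9 TPM to 7.22, 9.26, 9.31 and 8.46 TPM in FLOX. Its HKO levels were 13.8, 21.3, 15.9 and 13.5 TPM under vehicle and 8.85, 8.45, 7.84 and 6.73 TPM with palmitic acid. These groups did not overlap either, although the HKO vehicle sample numbered 2 stood above the rest of its group, and the log2 differences were -0.70 ± 0.14 and -0.92 ± 0.14 (limma adjusted p = 0.000836 and 5.60e-05).

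Acacb, acetyl-CoA carboxylase 2, which sits at mitochondria and whose malonyl-CoA holds back fatty acid oxidation, was expressed at about 3 to 7 TPM and differed by -0.33 ± 0.11 in FLOX and -0.48 ± 0.11 in HKO (limma adjusted p = 0.0305 and 0.00247). The FLOX groups met at 4.23 TPM, and that call was lost when FLOX vehicle sample 1, 2 or 4 or FLOX palmitic acid sample 3 or 4 was left out (adjusted p = 0.0762, 0.0694, 0.0611, 0.0885 and 0.0727), without the pair numbered 1 (-0.30, 0.0756) and with no filter on low values (0.069). Slc25a1, the mitochondrial citrate carrier, fell to 0.861 and 0.841 of its vehicle mean, from about 329 TPM in FLOX (limma adjusted p = 0.0011 and 0.000218). Acly, ATP citrate lyase, which cleaves that citrate to acetyl-CoA, did not pass in either genotype, at -0.09 ± 0.085 (95% interval -0.27 to 0.09) and -0.14 ± 0.085 (-0.32 to 0.05); scaling by median ratios gave -0.19 and -0.26 with adjusted p of 0.024 and 0.00321. Without the FLOX pair numbered 1 the FLOX difference of Acly was 0.06 (0.384), and the HKO difference passed in that fit (-0.14, 0.0337).

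Pklr, liver pyruvate kinase, the last step of glycolysis, had by level the highest TPM of the synthesis group. FLOX vehicle samples had 530, 421, 367 and 404 TPM and FLOX palmitic acid samples 278, 366, 350 and 359 TPM. HKO samples had 414, 555, 509 and 514 TPM under vehicle and 303, 335, 323 and 257 TPM with palmitic acid. The FLOX groups were separated by less than 1 TPM, between vehicle sample 3 and palmitic acid sample 2, and the HKO groups by a wide gap. The log2 difference was -0.71 ± 0.12 in HKO (limma adjusted p = 0.000227) and -0.34 ± 0.12 in FLOX (0.0391). The FLOX call was lost when vehicle sample 1, 2 or 4 or palmitic acid sample 1 or 3 was left out (adjusted p = 0.117, 0.0669, 0.0521, 0.106 and 0.0568), and without the pair numbered 1 the difference was -0.15 (0.276). It was also lost with all 16 samples under quantile normalization (0.0722), with no filter on low values (0.102), without the variance trend (0.0521), with only the FLOX groups fitted (0.0606) and with sample weights (0.0568), so the FLOX call of Pklr rests on the settings of the test.

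Of the NADPH genes, Me1, cytosolic malic enzyme, fell and the pentose phosphate enzymes did not pass. Me1 had 118, 117, 116 and 118 TPM in FLOX vehicle, 98.9, 104, 99.4 and 96.1 TPM in FLOX palmitic acid, 101, 102, 102 and 105 TPM in HKO vehicle and 101, 93.3, 89.6 and 90.2 TPM in HKO palmitic acid samples. Its vehicle samples were tightly grouped, and HKO palmitic acid sample 1 almost reached the lowest HKO vehicle sample. The log2 differences with palmitic acid were -0.23 ± 0.038 and -0.13 ± 0.038 (limma adjusted p = 0.000185 and 0.00971), and the HKO difference became -0.26 with median-ratio scaling. G6pdx, glucose-6-phosphate dehydrogenase, differed by 0.12 ± 0.11 in FLOX and 0.11 ± 0.11 in HKO, with 95% intervals of -0.12 to 0.36 and -0.13 to 0.36. Pgd, 6-phosphogluconate dehydrogenase, differed by 0.02 ± 0.037 and 0.05 ± 0.037, with intervals of -0.06 to 0.10 and -0.03 to 0.13.

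The acyl-CoA synthetases, which activate free palmitate, mostly did not pass. Acsl5 made up 77.7% to 84.5% of the summed TPM of the 4 synthetases in every sample and differed by 0.13 ± 0.077 in FLOX (95% interval -0.04 to 0.30) and -0.01 ± 0.077 in HKO (-0.17 to 0.16). It passed as higher in FLOX without palmitic acid sample 1 (0.20, limma adjusted p = 0.0399) without the pair numbered 1 (0.24, 0.0145) and with sample weights (0.0202). Its HKO difference was 0.06 (0.621) without the HKO pair. Acsl1, an isoform abundant in liver and fat, fell in HKO, from 20.5, 23.2, 21.4 and 19.1 TPM to 18.9, 18.2, 17.1 and 16.4 TPM, a log2 difference of -0.24 ± 0.090 (limma adjusted p = 0.0402). The HKO groups were only just apart, and the call was lost without HKO vehicle sample 1, 2 or 3 or palmitic acid sample 2, 3 or 4 (adjusted p = 0.061, 0.115, 0.0801, 0.0551, 0.0856 and 0.103), without the HKO pair (-0.16, 0.226) and with no filter on low values (0.0858). In FLOX it differed by -0.07 ± 0.090 (-0.26 to 0.12), or 0.03 (0.778) without the FLOX pair. Acsl4, which prefers arachidonate, had -0.07 ± 0.082 and -0.18 ± 0.082 and did not pass, but with median-ratio scaling it passed as lower in both genotypes (-0.17 and -0.30, adjusted p = 0.0465 and 0.00107). In HKO it also passed with quantile normalization (0.00185), with sample weights (0.0465) and in the fit without the FLOX pair (0.0194), while in FLOX the difference was 0.06 (0.479) without that pair. Acsl3, found at lipid droplets, differed by 0.16 ± 0.11 and 0.05 ± 0.11 and did not pass, and its HKO difference was -0.02 (0.918) without the HKO pair.

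At the first acylation, the mitochondrial enzyme Gpam fell in both genotypes and Gpat3, an enzyme of the endoplasmic reticulum, rose. Gpam, mitochondrial GPAT1, had 41.2, 32.96, 30.6 and 33.2 TPM in FLOX vehicle and 22.01, 27.97, 26.4 and 28.3 TPM in FLOX palmitic acid samples. In HKO it had 35.4, 43.2, 38.9 and 35.2 TPM under vehicle and 25.3, 28.3, 24.7 and 21.02 TPM with palmitic acid. The groups did not overlap, and FLOX sample 1 was both the highest vehicle and the lowest treated sample. The log2 differences were -0.38 ± 0.11 and -0.60 ± 0.11 (limma adjusted p = 0.011 and 0.000279), and without the FLOX pair numbered 1 the FLOX difference was -0.22 (0.0749).

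Gpat3 had 7.9, 10.1, 7.36 and 7.45 TPM in FLOX vehicle and 7.88, 12.9, 11.8 and 14.9 TPM in FLOX palmitic acid samples. In HKO it had 7.36, 9.5, 8.68 and 8.47 TPM under vehicle and 11.1, 12.2, 12.6 and 11.9 TPM with palmitic acid. Groups of HKO samples did not overlap, while FLOX palmitic acid sample 1 lay among the vehicle samples. Gpat3 rose by 0.46 ± 0.14 in FLOX and 0.45 ± 0.14 in HKO on the log2 scale (limma adjusted p = 0.0197 and 0.019), calls that were lost without FLOX vehicle sample 3 or 4, FLOX palmitic acid sample 2 or 4, or HKO vehicle sample 1 (adjusted p = 0.0567, 0.0552, 0.0592, 0.0724 and 0.0605). The HKO call was also lost with median-ratio scaling (0.0529), and the FLOX call with no filter on low values (0.0515) and with only the FLOX groups fitted (0.0749). Gpat4 rose in HKO by 0.26 ± 0.072 (limma adjusted p = 0.00938), which became 0.14 with either rescaling and did not pass (0.065 by median ratios and 0.0563 by quantiles). In FLOX it differed by 0.18 ± 0.072 (adjusted p = 0.0629) and passed without vehicle sample 1 or palmitic acid sample 1 (0.0379 and 0.006), without both (0.29, 0.00269) and with sample weights (0.00338).

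The AGPAT step, which adds the next acyl chain, had Agpat1 and Agpat3 higher. Agpat3 was the most abundant of the 4 by TPM, with 90.5, 96.6, 92.5 and 99.6 TPM in FLOX vehicle and 116, 118, 111 and 117 TPM in FLOX palmitic acid samples. In HKO its levels were 89.7, 97.2, 91.4 and 94.7 TPM under vehicle and 120, 121, 120 and 110 TPM with palmitic acid. All treated samples were above all vehicle samples, for log2 differences of 0.29 ± 0.042 and 0.33 ± 0.042 (limma adjusted p = 7.37e-05 and 1.22e-05), or 0.19 and 0.21 with median-ratio scaling. Agpat1 rose by 0.24 ± 0.064 and 0.45 ± 0.064 (limma adjusted p = 0.00877 and 4.10e-05), and its FLOX difference became 0.15 with median-ratio scaling and 0.14 with quantile normalization and did not pass (0.125 and 0.192). Agpat2, the isoform whose loss causes lipodystrophy, differed by -0.03 ± 0.049 and -0.11 ± 0.049 and did not pass; it passed as lower in HKO after median-ratio scaling, after quantile normalization and without HKO palmitic acid sample 1 (-0.23, -0.18 and -0.14, adjusted p = 0.00322, 0.00535 and 0.0301). Agpat5, at -0.06 ± 0.056 and -0.05 ± 0.056, passed as lower in both genotypes only with the 2 rescalings (adjusted p of 0.0307 to 0.0477).

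The 3 lipins, phosphatidate phosphatases that make diacylglycerol, split. Lpin1, which also acts in the nucleus as a transcriptional coactivator, had 10.6, 9.15, 8.15 and 8.53 TPM in FLOX vehicle and 5.65, 7.28, 7.18 and 7.02 TPM in FLOX palmitic acid samples. Its HKO levels were 11.3, 14.2, 12.3 and 11.6 TPM under vehicle and 7.28, 6.75, 5.95 and 5.75 TPM with palmitic acid. Treated samples were below vehicle samples in both genotypes, and the log2 differences were -0.38 ± 0.10 and -0.84 ± 0.10 (limma adjusted p = 0.00853 and 6.79e-06). Without the FLOX pair numbered 1 the FLOX difference was -0.24 (0.0541).

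Lpin2, the lipin with the highest TPM here, went the other way, from 52.9, 43.7, 39.4 and 42.9 TPM to 71.1, 104, 103 and 95.7 TPM in FLOX. In HKO it went from 44.8, 51.4, 50.5 and 41.7 TPM to 92.5, 107, 93.9 and 100 TPM. The lowest treated sample, FLOX sample 1, was still above every vehicle sample, and the mean was 2.09 times the vehicle mean in each genotype (log2 1.04 ± 0.11 and 1.05 ± 0.11, limma adjusted p = 3.70e-06 and 2.29e-06). Lpin3 rose to 1.95 times its vehicle mean in FLOX and 1.8 times in HKO, with 11.9, 9.92, 10.1 and 10.8 TPM against 18.6, 22.2, 22.02 and 20.4 TPM in FLOX (limma adjusted p = 8.86e-08). The HKO samples had 10.2, 11.1, 9.92 and 11.1 TPM under vehicle and 18.01, 20.5, 18.8 and 18.7 TPM with palmitic acid (limma adjusted p = 2.84e-07), again with no overlap.

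**Figure D3:**
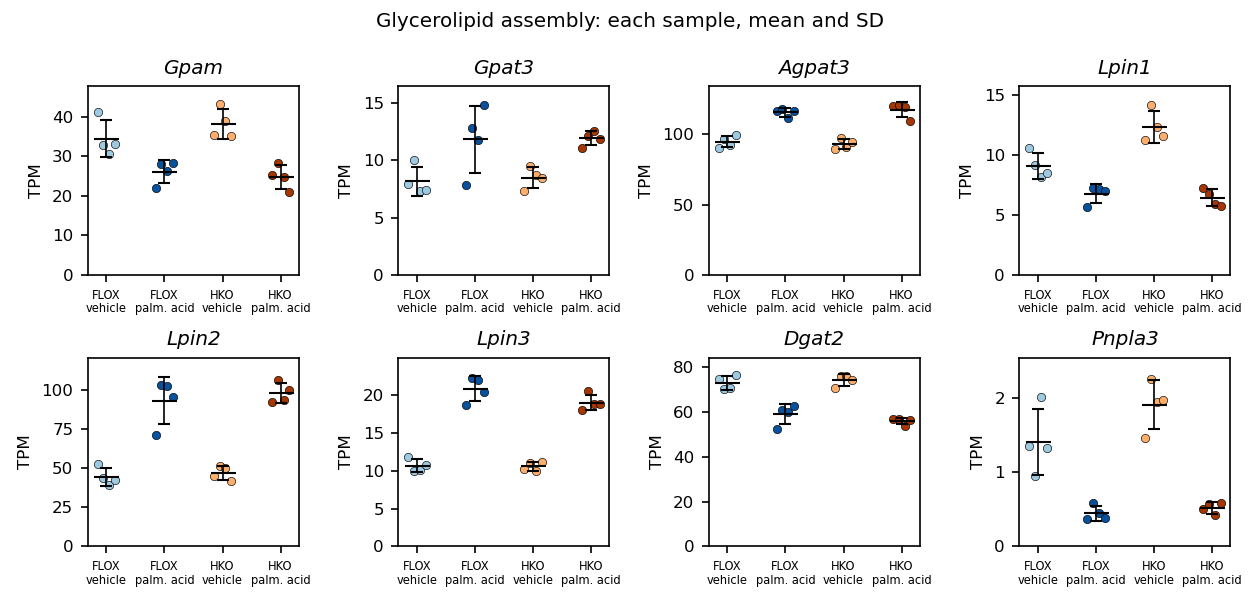
TPM of 8 glycerolipid genes (y axes from 0, in TPM) in each of the 16 samples, drawn as points with the mean (long bar) and SD (whiskers) of the 4 samples of each genotype and treatment. Lpin1 and Lpin2 move in opposite directions, Lpin1 to 7.28 TPM or less and Lpin2 to 71.1 TPM or more with palmitic acid.

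At the last step, Dgat2, which favours newly made fatty acids, fell and Dgat1 did not pass. Dgat2 had 74.7, 70.1, 70.7 and 76.7 TPM in FLOX vehicle and 52.4, 60.95, 59.9 and 62.5 TPM in FLOX palmitic acid samples. HKO samples had 70.7, 76.1, 76.03 and 74.5 TPM under vehicle and 56.9, 56.8, 53.95 and 56.5 TPM with palmitic acid. All treated samples were below all vehicle samples, for log2 differences of -0.31 ± 0.051 and -0.40 ± 0.051 (limma adjusted p = 0.00026 and 1.38e-05). Dgat1, the other diacylglycerol acyltransferase, differed by 0.15 ± 0.081 (95% interval -0.03 to 0.32) and 0.18 ± 0.081 (0.01 to 0.35), and passed in HKO only when the other genotype was left out of the fit (limma adjusted p = 0.0419). Pnpla3, a lipid droplet protein and an established target of SREBP-1, had the lowest level of the 31 genes, with 1.35, 0.95, 2.01 and 1.32 TPM in FLOX vehicle and 0.37, 0.59, 0.45 and 0.38 TPM in FLOX palmitic acid samples. In HKO it had 1.46, 2.26, 1.95 and 1.97 TPM under vehicle and 0.5, 0.57, 0.42 and 0.59 TPM with palmitic acid. No treated sample reached 1 TPM, and since Pnpla3 entered the test through its vehicle samples alone, its log2 differences of -0.72 ± 0.13 and -0.93 ± 0.13 are given with no p. At this low level the added 1 TPM shrinks the difference, and a pseudocount of 0.1 gave -1.43 and -1.69.

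Summed over its isoforms, each step showed a different balance, described here by mean TPM with no test. The lipin sum was 64.5 ± 7.6 TPM in FLOX vehicle, 70.0 ± 5.7 in HKO vehicle, 121 ± 18 in FLOX palmitic acid and 124 ± 7.4 in HKO palmitic acid samples, and the share of Lpin1 in it was 14.1%, 17.6%, 5.63% and 5.21%. The GPAT sum was 59.9 ± 5.7, 64.1 ± 5.4, 57.7 ± 7.5 and 57.7 ± 4.0 TPM in the same order, while the share of Gpam in it was 57.4%, 59.5%, 45.4% and 42.9%. The lipin sum thus was higher in treated cells with Lpin1 a smaller part of it, and the GPAT sums overlapped with Gpam a smaller part. The AGPAT sum was 179 ± 2.1 and 172 ± 4.3 TPM under vehicle in FLOX and HKO, and 200 ± 5.5 and 195 ± 8.8 TPM with palmitic acid. The DGAT sum was 87.8 ± 3.9 and 88.9 ± 1.6 TPM under vehicle and 75.4 ± 4.0 and 72.6 ± 0.92 TPM with palmitic acid. The acetyl-CoA carboxylase sum went from 19.6 ± 2.7 and 21.7 ± 4.3 TPM to 12.3 ± 1.0 and 11.7 ± 1.4 TPM.

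**Figure D4:**
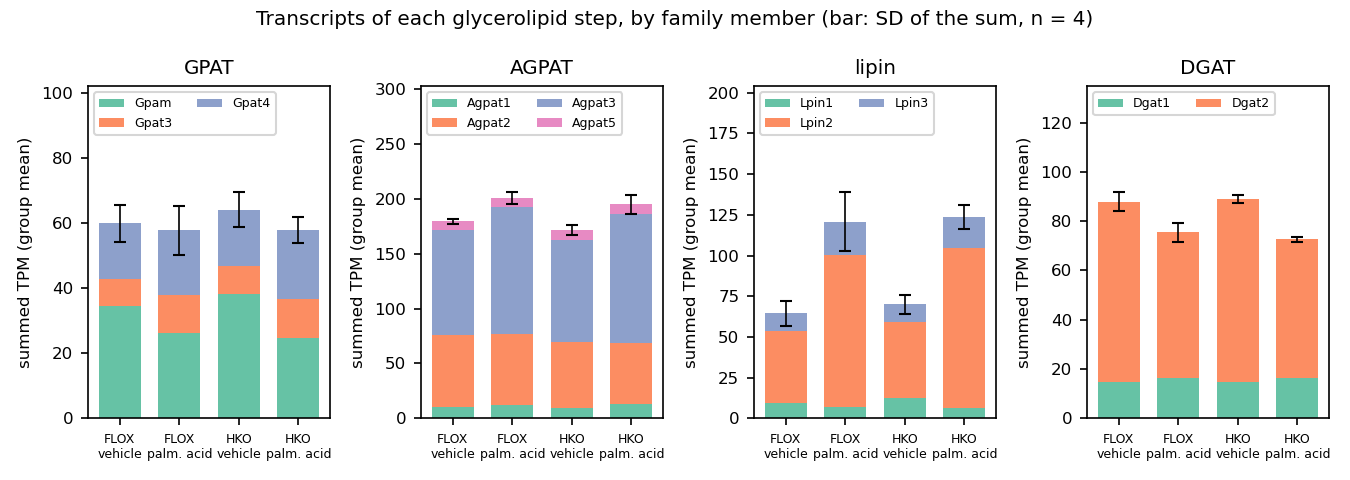
Summed TPM (y axes from 0) of the GPAT, AGPAT, lipin and DGAT genes in each genotype and treatment; coloured segments are the mean of each gene and whiskers the SD of the sum over 4 samples. The lipin bars stand at 64.5 and 70.0 TPM under vehicle and 121 and 124 TPM with palmitic acid, and most of the difference is the Lpin2 segment.

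Between genotypes under vehicle, 3 of the 31 genes passed, 2 higher and 1 lower in HKO, against 11.7% of all genes called, 4.11% higher and 7.56% lower. Lpin1, with the levels given above, was 0.40 ± 0.10 higher in HKO on the log2 scale (limma adjusted p = 0.0169), and every HKO vehicle sample exceeded every FLOX one. The call was lost without FLOX vehicle sample 3 or 4 or HKO vehicle sample 2 (adjusted p = 0.0556, 0.053 and 0.0592), and without the HKO pair (0.057). Srebf1 had 24.7, 21.5, 20.7 and 20.7 TPM in FLOX and 24.9, 26.7, 26.7 and 26.5 TPM in HKO vehicle samples. FLOX sample 1 came close to the lowest HKO sample without reaching it, and the difference was 0.25 ± 0.062 (limma adjusted p = 0.0149; 0.0515 without FLOX vehicle sample 4). Me1 was lower in HKO, with a log2 difference of -0.19 ± 0.038 (limma adjusted p = 0.00344), with the HKO vehicle samples at 101 to 105 TPM and the FLOX ones at 116 to 118 TPM. Without FLOX vehicle sample 4, Me1 alone passed, and without the FLOX pair numbered 1, Pklr passed as well, higher in HKO by 0.32 (0.045).

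With palmitic acid present, 2 of the 31 genes passed and both were lower in HKO, against 9.74% of all genes called, 4.24% higher and 5.5% lower. Acsl5 had 251, 318, 288 and 306 TPM in FLOX and 217, 250, 236 and 216 TPM in HKO samples. These ranges lay next to each other, with FLOX sample 1 only just above the highest HKO sample, and the difference was -0.33 ± 0.077 (limma adjusted p = 0.0111). Under vehicle Acsl5 differed by -0.20 ± 0.077 (0.119). Agpat2 had 69, 64.6, 63.5 and 62.7 TPM in FLOX and 60.4, 55.4, 56.7 and 51.6 TPM in HKO palmitic acid samples, all HKO values being lower, for a log2 difference of -0.21 ± 0.049 (limma adjusted p = 0.0109; 0.064 when only these groups were fitted). Srebf1 was 0.19 ± 0.062 higher in HKO with palmitic acid and did not pass (limma adjusted p = 0.071), though it passed with either rescaling (0.0107 and 0.00844) and without FLOX vehicle sample 1 (0.032). Me1, at -0.09 ± 0.038, passed only without HKO palmitic acid sample 1 (adjusted p = 0.0297). The hepatocyte, cholangiocyte and macrophage marker sums given above also differed between the genotypes, and their part in these differences was not tested.

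**Figure D5:**
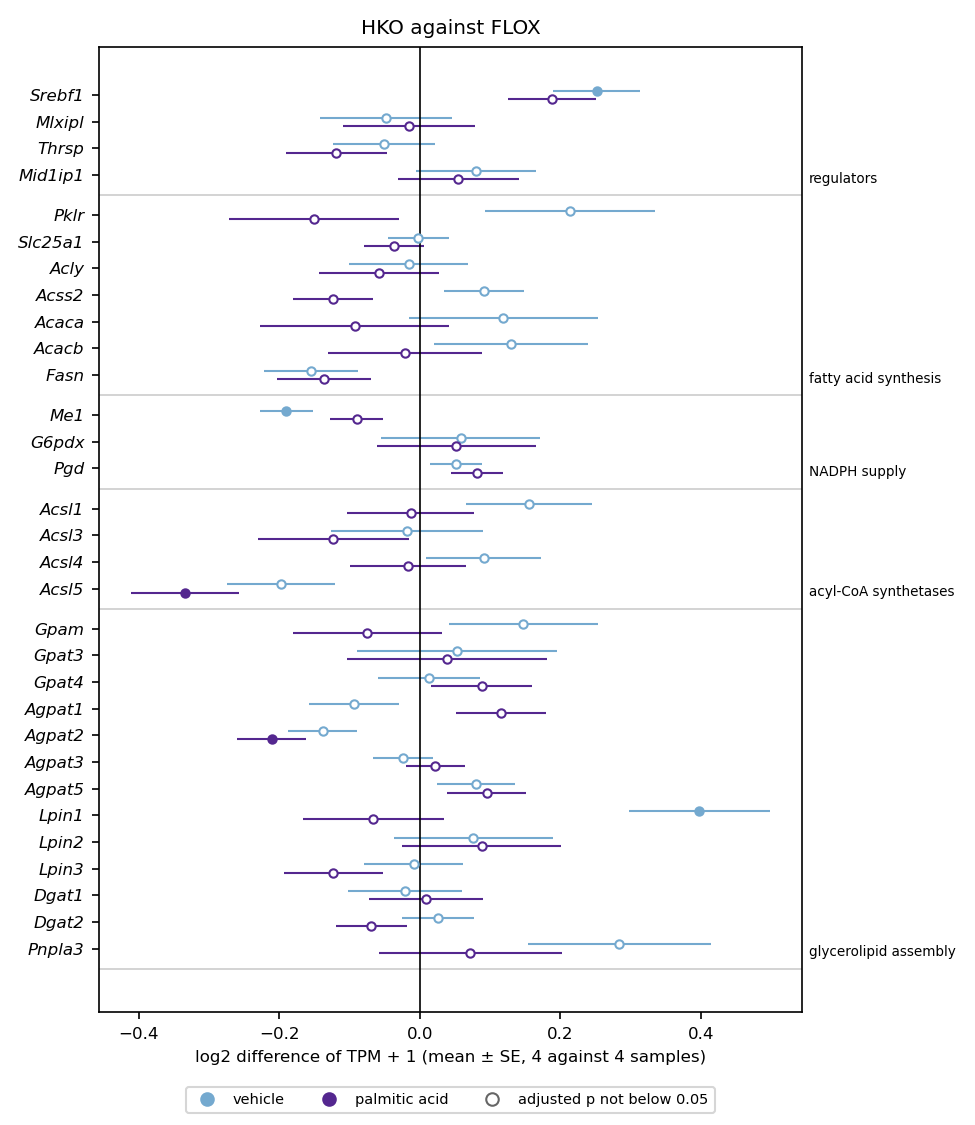
The log2 difference of TPM + 1 between HKO and FLOX (x axis, mean ± SE, 4 against 4 samples) under vehicle (light blue) and palmitic acid (purple) for 31 genes by role; filled points passed adjusted p 0.05. The filled points are Srebf1, Me1 and Lpin1 under vehicle and Acsl5 and Agpat2 with palmitic acid.

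Whether palmitic acid acted differently in HKO cells was tested as an interaction, and 0 of the 31 genes passed (limma, Benjamini-Hochberg), where 0.194% of all genes did. At an unadjusted p under 0.05 there were 4 genes, Pklr, Acss2, Agpat1 and Lpin1, or 12.9%, against 7.53% of all genes. The smallest adjusted p was 0.319, for Lpin1, whose log2 difference in HKO minus that in FLOX was -0.46 ± 0.14 (95% interval -0.77 to -0.16). For Fasn the interaction was 0.02 ± 0.094 (-0.18 to 0.22), for Lpin2 0.01 ± 0.16 (-0.33 to 0.35) and for Srebf1 -0.06 ± 0.088 (-0.25 to 0.12). The intervals of Fasn and Lpin2 leave room for differences of up to 0.22 and 0.35 in size, so a like response was not shown. The 2 responses use separate libraries and gave the same sign for all 18 genes called in FLOX, which are 100% of the FLOX calls and 90% of the HKO calls. Over all genes, 82.4% of the FLOX calls and 66.8% of the HKO calls were called in both with 1 sign. Across the 31 genes the 2 sets of differences had a Pearson r of 0.973, beside 0.734 across all genes, a description only, since the genes share libraries within each genotype and are not independent. Of the 13 genes lower in both, 11 (84.6%) had the larger estimated fall in HKO, beside 63.4% of all genes lower in both. Without the HKO pair it was 9 of 13 (69.2%, beside 57.6%), and without the FLOX pair 6 of 8 (75%, beside 58.2%). The interaction, and not this tally, is the test of a difference between the responses. Pnpla3 is counted in the 18, the 13 and the 11 genes and in the r of the fit of all samples. It entered the test through its vehicle samples alone and could only be lower.

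Other genes of the pathway were read from lists kept whole. Their counts for palmitic acid are to be read against the shares of all genes given above, 23% higher and 11.5% lower in FLOX and 29.4% higher and 13.1% lower in HKO, and those for HKO against FLOX against 4.11% higher and 7.56% lower under vehicle and 4.24% and 5.5% with palmitic acid. Counts of 3 genes higher with palmitic acid, and genotype counts of 0 to 2, are within 2 genes of what those shares give for lists of this size. Carbon and NADPH supply had 1 higher and 9 lower of 15 in FLOX and 1 higher and 10 lower in HKO, with medians of -0.17 and -0.24. Khk, ketohexokinase, fell to 0.75 and 0.704 of its vehicle mean (limma adjusted p = 7.76e-08 and 6.55e-09). Taldo1, transaldolase, was the gene that rose, by 0.41 ± 0.026 and 0.37 ± 0.026. Between genotypes the list had 1 higher and 5 lower in HKO under vehicle, and 1 higher and 6 lower with palmitic acid.

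Elongation and desaturation genes had 0 higher and 5 lower of 9 in FLOX and 0 higher and 6 lower in HKO, with medians of -0.22 and -0.25. Scd2, a stearoyl-CoA desaturase, fell from 6.96 ± 0.93 to 1.35 ± 0.13 TPM in FLOX and from 14.9 ± 1.1 to 2.44 ± 0.51 TPM in HKO (limma adjusted p = 8.56e-09 and 4.80e-10), and was higher in HKO under vehicle by 1.00 ± 0.11 (1.72e-05). Fads1 and Fads2, the desaturases of polyunsaturated fatty acids, fell, with log2 differences of -0.51 ± 0.055 and -0.54 ± 0.057 in FLOX. Fads1 was also higher in HKO under vehicle by 0.175 (limma adjusted p = 0.0498). That call was lost without FLOX vehicle sample 1, 2 or 3 (0.0706, 0.111 and 0.139) or HKO vehicle sample 2, 3 or 4 (0.133, 0.114 and 0.108). It was also lost without the HKO pair (0.101), with no filter (0.094) and in further settings. Scd1, the main liver desaturase, was lower in HKO with palmitic acid, at 232 ± 12 against 353 ± 45 TPM (limma adjusted p = 0.000166). The sterol genes controlled by SREBP-2 had 0 higher and 7 lower of 10 in each genotype, with medians of -0.46 and -0.60. Fdps, farnesyl diphosphate synthase, fell to 0.55 and 0.513 of vehicle, and Fdft1 and Lss, which make squalene and lanosterol, fell, with log2 differences of -0.56 ± 0.041 and -0.61 ± 0.067 in FLOX. Fdps was also higher in HKO under vehicle by 0.17 ± 0.053 (limma adjusted p = 0.0494), a call that held in only 9 of 27 alternatives (adjusted p up to 0.116).

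The control genes of SREBP, LXR and ChREBP had 2 higher and 4 lower of 13 in FLOX and 2 higher and 2 lower in HKO, with median log2 differences of -0.05 and 0.06. Insig1, which holds SREBP in the endoplasmic reticulum, fell, with log2 differences of -0.45 ± 0.074 and -0.64 ± 0.074 (limma adjusted p = 0.00024 and 5.15e-06), and Nr1h2, LXR beta, rose by 0.28 ± 0.060 and 0.39 ± 0.060. The other LXR gene, Nr1h3 (LXR alpha), went the other way and was called lower in each genotype (limma adjusted p under 0.05). Mlx, the partner of ChREBP, fell in FLOX (-0.24 ± 0.062) and was lower in HKO than in FLOX under vehicle, a log2 difference of -0.27 ± 0.062 (limma adjusted p = 0.0107), while Insig2 was higher in HKO with palmitic acid by 0.36 ± 0.094 (0.0246), which was lost without HKO palmitic acid sample 2, 3 or 4 (0.0556, 0.0532 and 0.0605), without the HKO pair (0.0513), with no filter (0.0659) and with only these groups fitted (0.0779). The rise of Nr1h2 in FLOX was 0.19 with median-ratio scaling. Without the FLOX pair, Insig2 passed as higher with palmitic acid in FLOX (0.239, limma adjusted p = 0.0107) and in HKO (0.211, 0.0084). In that fit Insig1 and Insig2 also passed as higher in HKO under vehicle (0.262 and 0.267, 0.00382 and 0.0125). With all samples these differences did not pass, though they also passed in some other settings. Mlx passed as lower in HKO with either rescaling (0.00688 and 0.00508) and without HKO vehicle sample 1 (0.0123). The list of other glycerolipid and droplet formation genes had 3 higher and 3 lower of 12 in each genotype, with medians of 0.05 and -0.04. Bscl2, seipin, fell, with log2 differences of -0.51 ± 0.074 and -0.58 ± 0.074, Gpd1, which supplies glycerol 3-phosphate, fell too (-0.22 ± 0.038 and -0.26 ± 0.038), and Cnep1r1, part of the phosphatase that acts on lipins, rose by 0.35 ± 0.076 and 0.30 ± 0.076, of which the HKO value became 0.19 with either rescaling and did not pass (0.0603 and 0.0513). Fitm1 was lower in HKO under vehicle at 1.84 ± 0.29 against 4.98 ± 0.44 TPM (limma adjusted p = 4.97e-06), and Gpd1 was lower in HKO with palmitic acid, a log2 difference of -0.35 ± 0.038 (1.30e-05).

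The phospholipid branch, which draws on the same diacylglycerol, had 3 higher and 0 lower of 8 in each genotype, with medians of 0.12 and 0.00. Lpcat3, a lysophospholipid acyltransferase, rose by 0.50 ± 0.058 and 0.50 ± 0.058. Chka, choline kinase alpha, rose by 0.40 ± 0.11 and 0.56 ± 0.11 and was higher in HKO with palmitic acid by 0.39 ± 0.11 (limma adjusted p = 0.0306). That genotype call of Chka was lost without FLOX palmitic acid sample 1 or 4 or HKO palmitic acid sample 1, 2 or 4 (0.0813, 0.0951, 0.0734, 0.0869 and 0.0835), without either pair (0.0823 and 0.0855), with no filter (0.0797), with only these groups fitted (0.0599) and with sample weights (0.0546). Pcyt2, of the phosphatidylethanolamine branch, rose in FLOX by 0.17 ± 0.043, or 0.07 and not past the threshold with median-ratio scaling (0.293), and did not pass in HKO at 0.03 ± 0.043. Triglyceride breakdown and export had 3 higher and 3 lower of 10 in FLOX and 3 higher and 5 lower in HKO, with medians of -0.10 and -0.09. Abhd5, the coactivator of adipose triglyceride lipase, rose by 0.56 ± 0.050 and 0.67 ± 0.050, and G0s2, the inhibitor of that lipase, fell, with log2 differences of -0.59 ± 0.067 and -0.63 ± 0.067. Tm6sf2, which takes part in VLDL lipidation, fell, with log2 differences of -0.47 ± 0.058 and -0.55 ± 0.058. G0s2 was also lower in HKO under vehicle, a log2 difference of -0.23 ± 0.067 (limma adjusted p = 0.0343; lost with either rescaling at 0.171 and 0.178, without FLOX vehicle sample 3 or 4 or HKO vehicle sample 1, 2 or 3 at 0.0673 to 0.0995, without the HKO pair at 0.0847 and with no filter at 0.0584), and Mttp, which loads lipid onto VLDL, was lower in HKO with palmitic acid, a log2 difference of -0.37 ± 0.072 (0.00306). Between genotypes under vehicle, the calls higher and lower in HKO were 0 and 1 of the control genes, 2 and 0 of elongation and desaturation, 0 and 2 of the other glycerolipid genes, 0 and 0 of the phospholipid branch, 0 and 1 of breakdown and export, and 1 and 0 of the sterol genes. With palmitic acid they were 1 and 0, 1 and 2, 0 and 2, 1 and 0, 0 and 2, and 0 and 0 in the same order. In the interaction, none of the 7 lists had a gene that passed in the fit of all 16 samples (limma, adjusted over all genes). Scd1, at -0.39 ± 0.12 (0.307), passed in 3 of 26 alternatives: without FLOX palmitic acid sample 1 (-0.48, 0.0451), without the FLOX pair (-0.54, 0.0203) and with sample weights (-0.48, 0.0308).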

How the data were processed

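Stranded total RNA libraries were made from 16 samples of mouse primary hepatocytes and sequenced, per the labels' protocols. The authors deposited TPM per mouse Ensembl gene ID with 2 decimals. RSEM 1.3.3 is named in the submitters' processing notes, which also list a human build, GRCh38.p13, which mouse IDs cannot have come from; the TPM table was therefore used without coordinates. Aligner and annotation: not given in the sources used here. Depth is lost in TPM, and no counting intervals were made. Each column summed to between 975816 and 984870 TPM, and 11231 to 11498 genes reached 1 TPM in a sample.

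Symbols were found for 52083 of the 55416 IDs (94%). Genes with at least 1 TPM in at least 4 samples entered limma 3.58.1 (R 4.3.3) as log2(TPM + 1): a single model with 4 group means, moderated variances with a trend, two-sided, Benjamini-Hochberg over 11858 genes, threshold 0.05. The fold changes are on the log2(TPM + 1) scale, which understates the change of low genes. The model was tested on simulated data with noise drawn independently for each gene and sample. That test does not cover samples that lie at the edge of their group for many genes, as some do here. The 32 genes, the further lists and the tests were chosen with earlier results of these data known. All 32 genes are named. From each further list the 3 genes with the smallest adjusted p for palmitic acid in FLOX are named, and the gene with the smallest adjusted p between genotypes where it passed. Nr1h3 is named in addition, beside Nr1h2. Some genes that this rule names are not reported here. Alternatives changed the pseudocount (0.1), the filter, the scaling, the variance trend, the samples fitted, the weights and the replicate term, and left out each sample; leaving out the FLOX pair or the HKO pair was added after seeing the data, as were the alternatives for the further lists. Gene-level TPM can split reads between close paralogs, and the isoforms of a gene are not told apart.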

Additional observations from a re-analysis of the deposited data

Results flagged for a closer look

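Within a group of 4 samples, the highest or lowest sample can stand apart from the other 3, taken here as a gap to the nearest sample of over 82.9% of the group's range (Dixon's 95% limit for 4 samples). Over the genes and summed steps there were 172 such groups, and 14 (8.14%) met this limit, where chance gives about 1 in 20. Only values are given, and the cause was not tested.

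In FLOX vehicle, Slc25a1 was low in sample 3 at 315 TPM, Fasn high in sample 2 at 99.7 TPM, Agpat1 high in sample 3 at 10.6 TPM and Agpat5 high in sample 1 at 8.77 TPM. In FLOX palmitic acid, sample 1 was low for Acly (84.1 TPM) and Lpin1 (5.65 TPM) and had the only Mogat1 value above 0 (0.44 TPM), and sample 4 was high for Thrsp (17.6 TPM) and Acss2 (17.8 TPM). In HKO vehicle, sample 1 was low for Srebf1 (24.9 TPM) and high for Dgat1 (16.1 TPM), and sample 2 was high for Gpat4 (18.9 TPM). In HKO palmitic acid, Agpat3 was low in sample 4 at 110 TPM and Dgat2 low in sample 3 at 54 TPM.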

How the results depend on the processing

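Over 27 alternatives, 43 called differences of the 31 genes were recomputed, giving 1159 values. Of the 43, 30 stayed past the threshold in each fit that held them, and none changed sign. The 30 include the palmitic acid differences of Pnpla3, which could only be lower. Pnpla3 reached at most 2.26 TPM and was not in the fit with a filter of 5 TPM. Of 2990 recomputed values that were not called, 150 changed sign without passing. Of 68 called differences of the genes that the naming rule takes from the further lists, 60 stayed past the threshold in each alternative. Leaving out 1 sample at a time, the genes called ranged from 15 to 19 for palmitic acid in FLOX, 18 to 21 in HKO, 1 to 3 for HKO against FLOX under vehicle, 2 to 3 with palmitic acid, and 0 to 0 for the interaction. HKO against FLOX under palmitic acid gave 1 call, not 2, when only those groups were fitted, and the low end under vehicle, 1, came without FLOX vehicle sample 4. The other planned settings gave 15 to 20, 19 to 23, 3 to 3, 1 to 3 and 0 to 0. Without the FLOX pair numbered 1 the counts were 15, 22, 4, 2 and 0, and without HKO vehicle sample 2 and palmitic acid sample 4 they were 18, 19, 2, 2 and 0. Fitting only the groups compared has no interaction.

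Whether the shared replicate numbers pair the samples was not settled. The correlation of same-numbered samples' deviations was -0.15 to 0.086 between treatments and -0.112 to 0.112 between genotypes. Not every sample correlated best with its own number, though between treatments HKO samples 2 and 4 did (0.086 against 0.009 and 0.064 against 0.016). Between genotypes, FLOX palmitic acid samples 1 and 2 did so too (0.112 against 0.022 and 0.089 against -0.009). Deviations from means of 4 samples cannot exclude pairing. With the replicate block the counts were 16, 19, 3, 2 and 0; the calls that did not pass then were Thrsp and Pklr in FLOX (0.0635 and 0.0849) and Acsl1 in HKO (0.0814), and, of the further lists, Fads1 and Fdps between genotypes under vehicle (0.0722 and 0.0678). The TPM table limits the precision, since depth is unknown.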
